A study of Mus musculus with 2 samples.

Results

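Tgfb1, Tgfb2 and Tgfb3 encode the TGF-beta ligands, Tgfbr1 and Tgfbr2 their receptor kinases, and Ccn1, Ccn2, Thbs1 and Postn encode matricellular proteins, which are secreted into the matrix and act on cells more than they build it. These 9 genes were taken by name from the 32285 genes of the deposited count matrices. Their UMIs, the unique transcript tags of droplet sequencing, were followed through the cell classes of mouse uterus in 2 groups. DOX plus AMH animals were given anti-Müllerian hormone (AMH), 0.75 mg/kg, along with doxorubicin, an anthracycline that damages DNA, at 3 mg/kg. The DOX group had that dose of doxorubicin alone. Both groups had therefore been exposed to doxorubicin, and libraries from untreated animals were not analysed here. The labels time the samples at 4 h and describe 1 library per group, made from the uteri of 5 animals that were pooled before dissociation with papain and collagenase. The series text names mice of postnatal day 25 and 2 weekly doses for its bulk sequencing, and whether these animals shared that schedule is not stated. The strain was not given in the sources used here. The question the pair of libraries poses is how doxorubicin-exposed uterine cells differ when the hormone is given with the drug.

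TGF-beta ligands are secreted in latent complexes with their propeptides and, once released, bind Tgfbr2, which then recruits and phosphorylates Tgfbr1 so that SMAD proteins carry the signal to the nucleus. Thrombospondin-1, the product of Thbs1, can release the ligand from its latent complex, while Ccn1 and Ccn2 respond within hours to TGF-beta, to serum response factor and to YAP with its TEAD partners, and periostin, from Postn, is a TGF-beta-inducible partner of integrins and collagen. In the mouse uterus the pathway is known for the formation of the smooth muscle layers, which are disturbed when Tgfbr1 is deleted from the reproductive tract, and AMH itself is a distant member of the same ligand family that uses the receptor Amhr2.

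The 3 promoters shown here belong to the ligand and the matricellular gene that were both higher in DOX plus AMH in the smooth muscle-like class, and to Tgfb1, a ligand that was low in that class. Each is the 250 bases before the gene's start in RefSeq on GRCm38.p6, read 5′ to 3′ on the gene's own strand. The RefSeq table matched 6 of the 9 genes, all but Tgfb3, Ccn2 and Thbs1. Capitals mark matches on either strand to the SMAD-type motif CAGACA, the TEAD motif GGAATG or the SP1 motif GGGCGG, with no overlaps between them here.
Ccn1: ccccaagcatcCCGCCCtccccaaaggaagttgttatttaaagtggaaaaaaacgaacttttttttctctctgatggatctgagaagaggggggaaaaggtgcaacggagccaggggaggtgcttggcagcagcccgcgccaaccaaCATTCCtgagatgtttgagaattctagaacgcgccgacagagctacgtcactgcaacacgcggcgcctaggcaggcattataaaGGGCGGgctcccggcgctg
Tgfb2: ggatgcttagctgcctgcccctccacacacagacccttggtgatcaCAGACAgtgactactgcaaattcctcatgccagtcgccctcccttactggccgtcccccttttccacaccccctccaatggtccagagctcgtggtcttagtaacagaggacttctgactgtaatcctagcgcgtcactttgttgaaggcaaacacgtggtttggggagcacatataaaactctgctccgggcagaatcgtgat
Tgfb1: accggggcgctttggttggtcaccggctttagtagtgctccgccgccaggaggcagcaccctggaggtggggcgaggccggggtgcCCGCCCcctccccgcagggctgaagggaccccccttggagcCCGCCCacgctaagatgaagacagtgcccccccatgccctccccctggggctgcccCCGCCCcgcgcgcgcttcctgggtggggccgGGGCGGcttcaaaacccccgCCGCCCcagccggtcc
The Ccn1 promoter, chr3:145649986-145650235 on the minus strand, held 1 TEAD match from 103 to 98 bases before the start and 2 SP1 matches. The Tgfb2 promoter, chr1:186705990-186706239 on the minus strand, held 1 SMAD-type match from 204 to 199 bases before the start. The Tgfb1 promoter, chr7:25686752-25687001 on the plus strand, held 5 SP1 matches and was 75.2% G or C. Such short motifs are common: among 32851 RefSeq promoters of the same length, 12.6% held GGAATG, 17.1% held CAGACA and 32.7% held GGGCGG. A search of the same windows for the AP-1 motif TGANTCA, the CRE motif TGACGTCA and the serum response element CArG box found none in these 3 promoters, against 6.75%, 1.55% and 1.47% of all promoters. These matches describe letters, and binding was not measured.

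In the mm10 annotation Tgfb1 (ENSMUSG00000002603) lies at chr7:25687002-25705077, Tgfb2 (ENSMUSG00000039239) at chr1:186622792-186705989 and Tgfb3 (ENSMUSG00000021253) at chr12:86056745-86079041. Tgfbr1 (ENSMUSG00000007613) lies at chr4:47353222-47414931 and Tgfbr2 (ENSMUSG00000032440) at chr9:116084293-116175360. Ccn1 (ENSMUSG00000028195) lies at chr3:145646976-145649981, Ccn2 (ENSMUSG00000019997) at chr10:24595442-24598683, Thbs1 (ENSMUSG00000040152) at chr2:118111876-118127133 and Postn (ENSMUSG00000027750) at chr3:54361109-54391037. All 9 are protein-coding.

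The DOX plus AMH library held 97887259 UMIs over 8083 barcodes and the DOX library 129530270 UMIs over 9258. After filtering and removal of doublets 6738 and 7387 cells remained, with medians of 10101 and 13739 UMIs, so cells of DOX plus AMH were read less deeply. The libraries share 17 barcodes, 13 of them kept in both. Clusters were named from fixed marker genes and are called like those cells, and 10 classes had at least 50 cells in each library. Stromal-like cells numbered 3679 in DOX plus AMH and 4957 in DOX, smooth muscle-like cells 1118 and 922, and the other 8 classes between 58 and 277. A cluster of 243 DOX plus AMH and 148 DOX cells, led by Dgkb, Mustn1 and Ctnna3, scored nearly alike for smooth muscle and pericyte markers and stayed unnamed, since the pericyte marker Rgs5 was among its leading genes. Another unnamed cluster, led by Reln, Lyve1 and Ccl21a, had 1 DOX plus AMH and 40 DOX cells. A further one, led by Rgs5, Epas1 and Ptprb with Flt1 among its leading genes, had 0 and 70. These DOX cells with endothelial genes lay outside the compared classes. Mesothelial-like cells held their defining markers, such as Upk3b and Msln, but also more Dcn, a stromal marker, than stromal-like cells did. The cluster named dendritic-like from its fixed markers was led by Igkc and also held Ighm among its leading genes, both immunoglobulin genes of B cells, so its values may not be those of dendritic cells alone. Squamous epithelial-like cells, 482 in DOX plus AMH and 7 in DOX, could not be compared, nor could the erythroid-, glial- and neutrophil-like cells, and the orders of levels given here run over the 10 compared classes. Levels below are CPM, the gene's share of all UMIs of a class in a library on the usual counts-per-1000000 scale, with exact 95% Poisson intervals, and ratios are log2, DOX plus AMH over DOX, with 95% intervals from the binomial split of the UMIs. With 1 library per group no difference could be tested, every interval covers counting error only, and a gene is called higher or lower where it was at least 1.5-fold apart with at least 50 UMIs over both libraries. Levels of different genes are not compared with each other, since only the 3′ ends of transcripts were counted.

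The ligands differed in their order of classes, with lymphatic endothelial-like cells near the top for all 3. Tgfb1, the ligand best known from immune and endothelial cells, was highest in lymphocyte-like, macrophage or monocyte-like, dendritic-like and lymphatic endothelial-like cells, at 156 to 167 CPM in DOX plus AMH and 149.9 to 169.8 CPM in DOX. Those 4 classes had overlapping intervals in both libraries. Vascular endothelial-like cells came next, with 71.4 CPM (63.2 to 80.5) in DOX plus AMH and 44.7 CPM (35.5 to 55.5) in DOX, and stromal-like cells held only 3.65 CPM in DOX plus AMH and 4.49 CPM in DOX. Tgfb2 was highest in lymphatic endothelial-like cells, with 124 CPM (103 to 148) in DOX plus AMH and 154 CPM (136 to 175) in DOX, apart from the next class in both libraries. Below them lay stromal-like, vascular endothelial-like and pericyte-like cells with overlapping intervals, at 63.7 to 76.9 CPM in DOX plus AMH and 59.7 to 77.9 CPM in DOX. Mesothelial-like cells stood below those classes in DOX plus AMH, at 40.0 CPM, and next to the lymphatic class in DOX, at 103 CPM, where they overlapped with the vascular one. Lymphocyte-, macrophage-, dendritic- and epithelial-like cells were all under 10 CPM of Tgfb2. Tgfb3 was highest in mesothelial-like cells of DOX, at 49.2 CPM, and shared its highest place in DOX plus AMH among pericyte-, lymphatic endothelial-, stromal- and mesothelial-like cells, at 20.2 to 29.6 CPM with overlapping intervals.

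The receptors were spread more widely. Tgfbr1 lay between 29.5 and 73.9 CPM in all 10 classes of DOX plus AMH and between 16.1 and 70.6 CPM in DOX, highest in macrophage or monocyte-like cells, which overlapped with lymphocyte-like cells. Tgfbr2 spanned a wider range, from 19.7 CPM in DOX plus AMH and 26.1 CPM in DOX in epithelial-like cells to 404 CPM in DOX plus AMH and 469.9 CPM in DOX in lymphatic endothelial-like cells, and both ends stood apart from their neighbours in both libraries. Epithelial-like cells thus had the lowest level of the ligand-binding receptor, and smooth muscle-like cells, at 54.3 CPM in DOX plus AMH and 58.0 CPM in DOX, were also low.

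**Figure D1:**
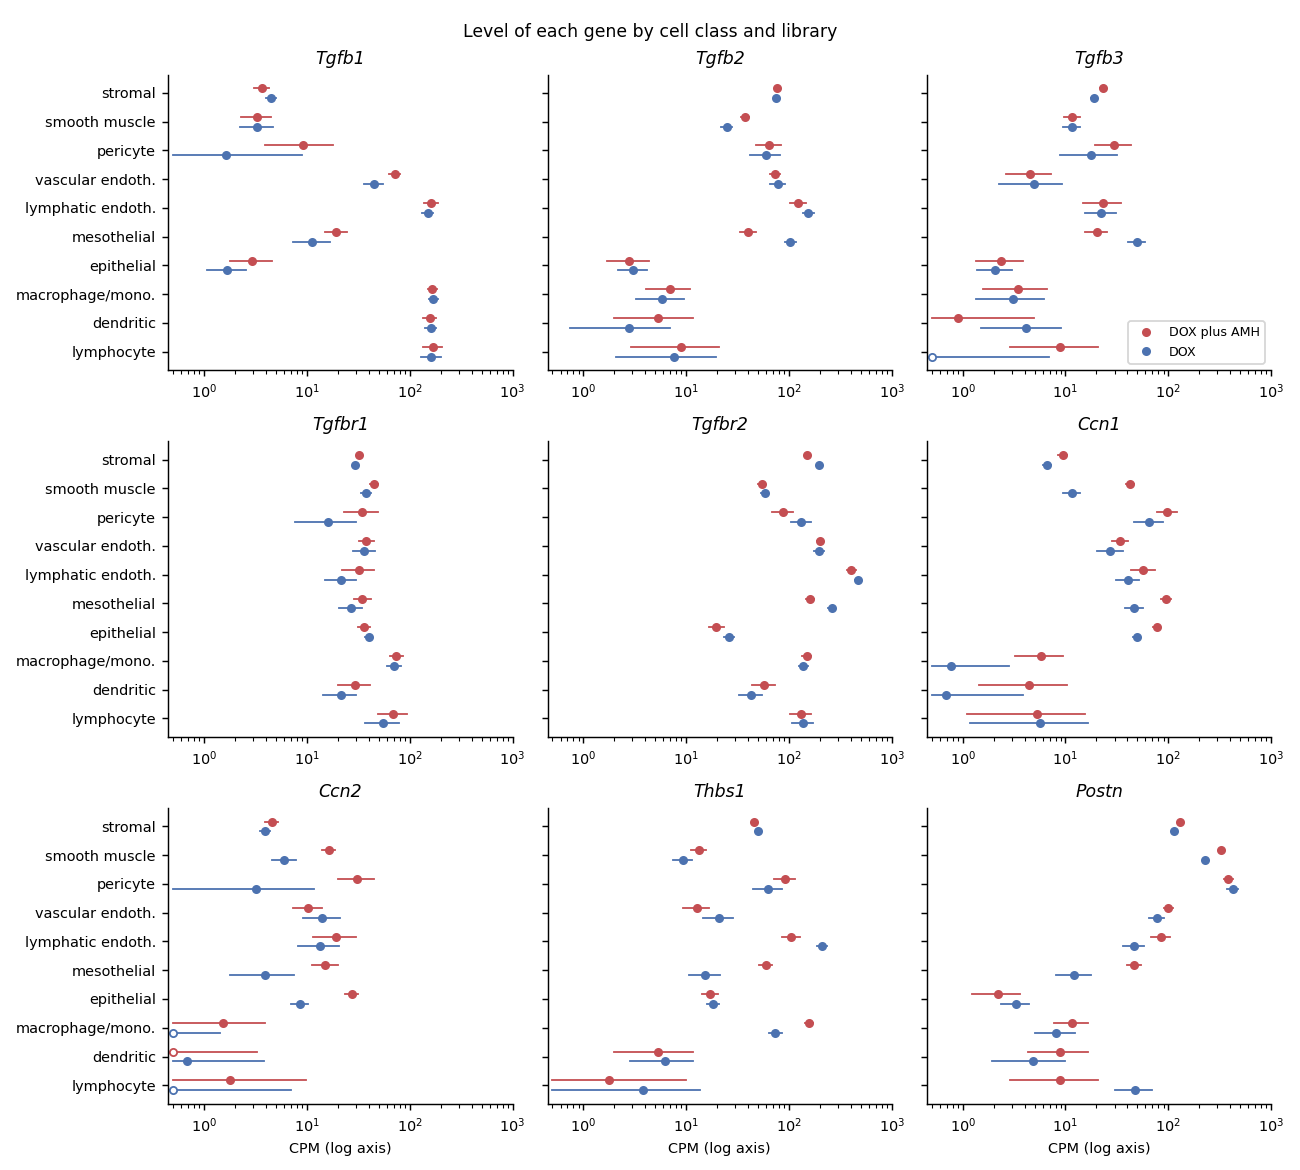
CPM of each gene (log axis) by cell class, with DOX plus AMH above DOX and lines for exact 95% Poisson intervals; open circles at the left edge mark classes with no UMI. In both libraries Tgfb1 lies above 100 CPM in the immune and lymphatic classes, and Postn in pericyte-, smooth muscle- and stromal-like cells. Vascular endothelial-like cells hold 100.3 CPM of Postn in DOX plus AMH.

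Among the matricellular genes Postn was highest in pericyte-like cells, with 385 CPM (345 to 428) in DOX plus AMH and 423 CPM (373 to 477) in DOX, followed by smooth muscle-like cells with 322 CPM (312 to 333) in DOX plus AMH and 227 CPM (217 to 236) in DOX and stromal-like cells with 129.9 CPM (126 to 133) in DOX plus AMH and 113 CPM (111 to 116) in DOX. These 3 classes stood apart from each other in both libraries. Outside the compared classes, the 17 and 11 glial-like cells of DOX plus AMH and DOX had Postn at 231 CPM (141 to 357) in DOX plus AMH and 1162 CPM (868 to 1524) in DOX, on 20 and 52 UMIs. Among the compared classes Thbs1 was highest in macrophage or monocyte-like cells of DOX plus AMH and in lymphatic endothelial-like cells of DOX, so its order of classes differed between the libraries, and the 12 neutrophil-like cells of DOX plus AMH held 13 UMIs of it, or 313 CPM. Ccn1 was highest in pericyte-like cells of both libraries, with 97.9 CPM in DOX plus AMH and 64.6 CPM in DOX, where it overlapped with mesothelial-like cells in DOX plus AMH and with epithelial-like cells in DOX. Ccn2 did not exceed 30.7 CPM in any of the 10 classes, and the glial-like cells held 9 UMIs of it in DOX plus AMH and 1 in DOX. The unnamed cluster led by Dgkb held more Ccn1 and Ccn2 than any of the 10 classes, 199 CPM in DOX plus AMH and 189 CPM in DOX for Ccn1 and 193 CPM in DOX plus AMH and 157 CPM in DOX for Ccn2, and also 178 CPM in DOX plus AMH and 239 CPM in DOX for Tgfb2. Lymphocyte-like cells, which should nearly lack these transcripts, held 3 and 3 UMIs of Ccn1, 1 and 0 of Ccn2 and 1 and 2 of Thbs1 in DOX plus AMH and DOX. They held 5 and 25 UMIs of Postn, of which 1 cell of DOX held 22.

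Of the 90 pairs of gene and class, 66 had enough UMIs for a ratio. In these, 14 were called higher and 6 lower in DOX plus AMH, where over all genes measured the share called higher was 6.24% to 14.3% by class and the share called lower 4.29% to 16.1%. Of the calls, 8 of 20 lay in mesothelial-like cells and 3 in smooth muscle-like cells, and stromal-like, dendritic-like and lymphocyte-like cells had none. Ccn1 was called in 4 classes, Ccn2 in 3, each time higher, and Tgfbr1 in none.

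**Figure D2:**
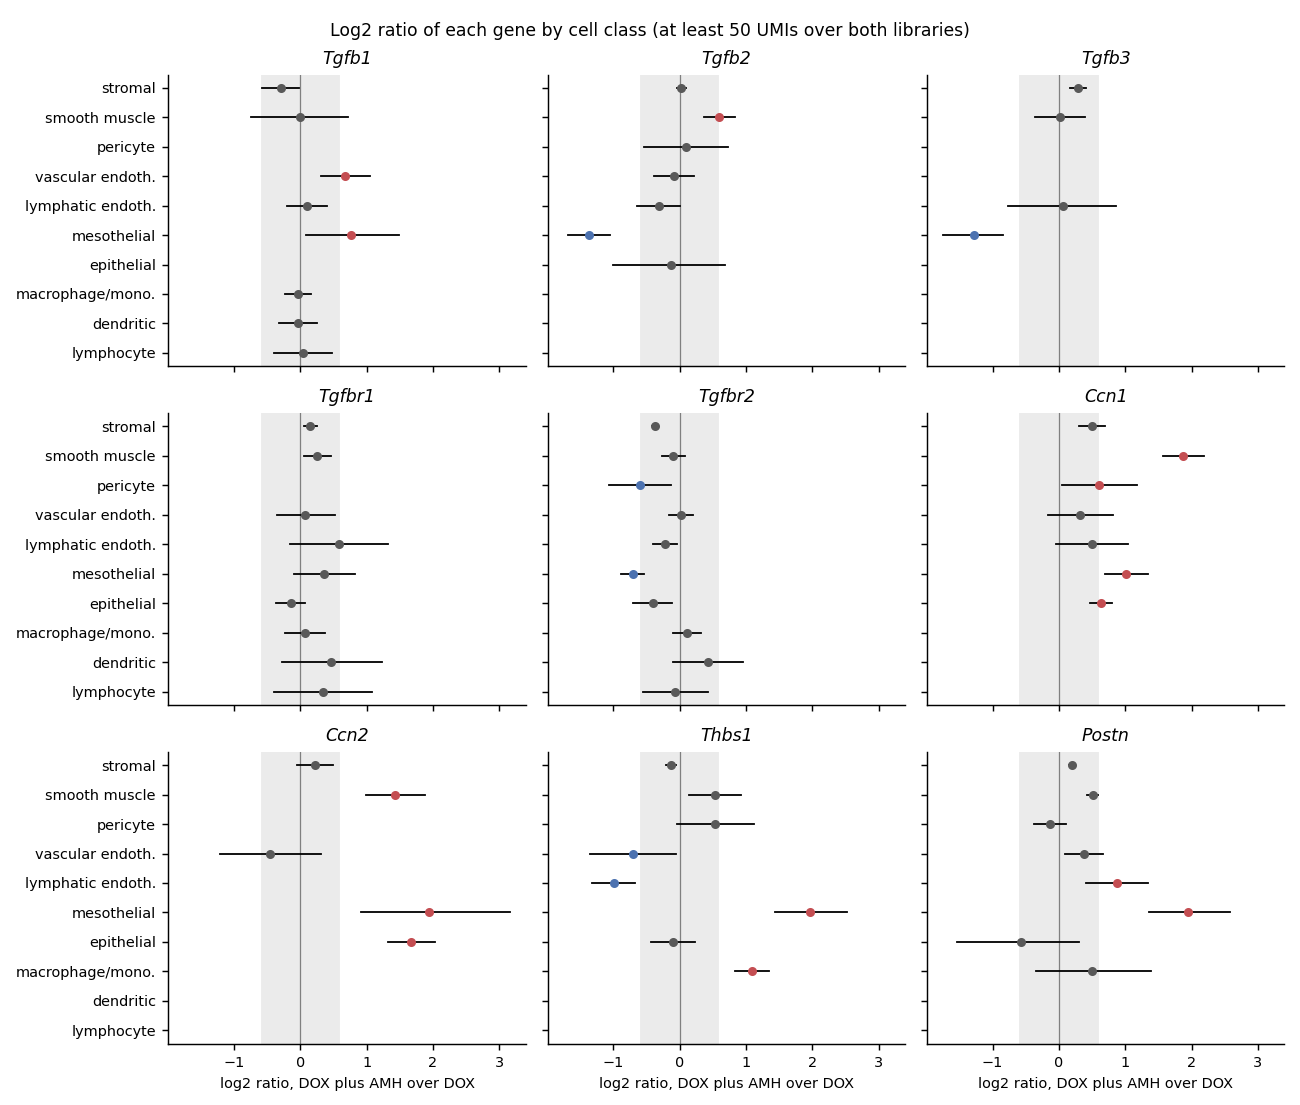
Log2 ratio of each gene, DOX plus AMH over DOX, by cell class, with 95% intervals for counting error and the range within 1.5-fold shaded; red points are called higher and blue points lower, and classes with fewer than 50 UMIs are left out. Ccn1 and Ccn2 are red wherever they are called, and mesothelial-like cells hold calls in both directions.

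In smooth muscle-like cells Ccn1, Ccn2 and Tgfb2 were higher in DOX plus AMH and none of the 9 genes was called lower, where 8.63% of the 12344 genes measured there were called higher and 4.33% lower. Ccn1 held 469 UMIs in DOX plus AMH and 113 in DOX, or 42.3 CPM (38.6 to 46.4) in DOX plus AMH and 11.6 CPM (9.54 to 13.9) in DOX, a log2 ratio of 1.87 (1.57 to 2.18). Ccn2 had 16.3 CPM (14.0 to 18.8) in DOX plus AMH and 6.04 CPM (4.60 to 7.79) in DOX, a ratio of 1.43 (1.00 to 1.88). In DOX plus AMH the Ccn1 and Ccn2 intervals lay above those of lymphocyte-like cells, 5.33 CPM (1.10 to 15.6) and 1.78 CPM (0.0450 to 9.90). In DOX they overlapped with the lymphocyte-like intervals, 1.17 to 16.6 CPM for Ccn1 and 0 to 6.98 CPM for Ccn2. The DOX levels were thus not apart from that background, which rested on 3 UMIs of Ccn1 and 0 of Ccn2. Macrophage or monocyte-like cells of DOX had 0.775 CPM (0.0939 to 2.80) of Ccn1 and 0 CPM (0 to 1.43) of Ccn2. Both of those intervals lay below the smooth muscle-like intervals of DOX. Tgfb2 had 37.4 CPM (33.9 to 41.2) in DOX plus AMH and 24.7 CPM (21.7 to 28.0) in DOX, a ratio of 0.60 (0.37 to 0.83), close to the 1.5-fold line. Postn, at 0.51 (0.43 to 0.58), and Thbs1, at 0.53 (0.14 to 0.92), were within 1.5-fold with intervals above 0, and Tgfb1, Tgfb3 and both receptors lay between -0.10 and 0.26. The median over the 9 genes was 0.51, against 0.14 over all genes measured in this class.

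The difference sat mainly in 1 of the 2 large smooth muscle-like clusters, the one led by the contractile genes Actg2, Cnn1 and Tagln, with 551 DOX plus AMH and 480 DOX cells. There Ccn2 had 132 UMIs in DOX plus AMH and 7 in DOX, or 22.3 CPM in DOX plus AMH and 1.36 CPM in DOX, a ratio of 4.03 (2.95 to 5.38). Ccn1 had 70.7 CPM in DOX plus AMH and 17.3 CPM in DOX, a ratio of 2.03 (1.69 to 2.37), and Tgfb2 49.0 CPM in DOX plus AMH and 28.0 CPM in DOX, a ratio of 0.81 (0.51 to 1.10). Without the 3 cells with most UMIs of the gene in each library the ratios were 4.70 for Ccn2, 2.23 for Ccn1 and 0.65 for Tgfb2. The Ccn2 value then rests on fewer than its 7 UMIs in DOX, so its size is poorly fixed. In the cluster led by Tnni2, Pcp4 and Acta1, with 561 and 436 cells, Ccn2 had 9.33 CPM in DOX plus AMH and 11.3 CPM in DOX, a ratio of -0.27 (-0.87 to 0.32), and Tgfb2 a ratio of 0.20 (-0.20 to 0.59). Ccn1 was also higher there, at 9.91 CPM in DOX plus AMH and 5.21 CPM in DOX, a ratio of 0.93 (0.20 to 1.69). No test of the difference between the clusters was possible with 1 library per group.

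**Figure D3:**
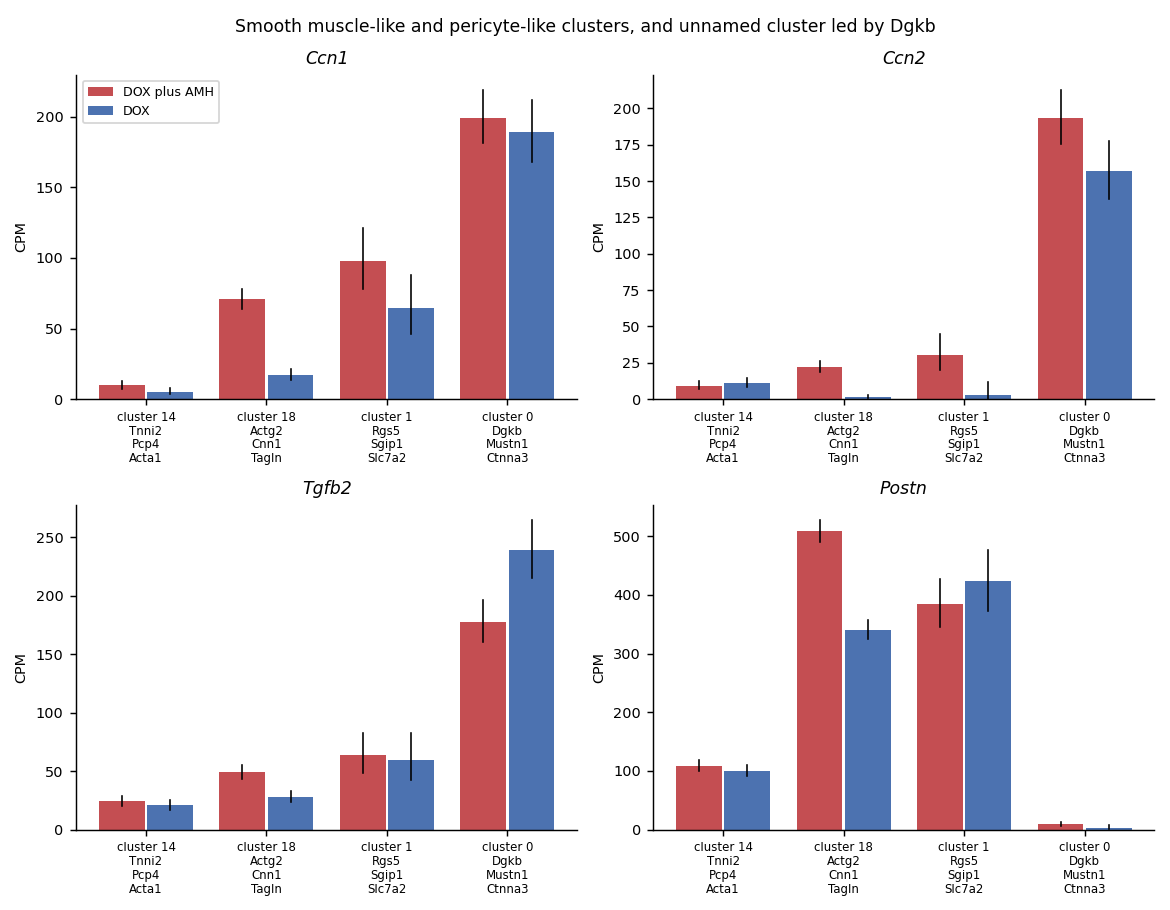
CPM of Ccn1, Ccn2, Tgfb2 and Postn in the smooth muscle-like clusters 14 and 18, the pericyte-like cluster 1 and the unnamed cluster 0, each with its leading genes; bars for DOX plus AMH stand left of those for DOX and lines are exact 95% Poisson intervals. Ccn1 and Ccn2 are highest in cluster 0 in both libraries, and within smooth muscle their difference is largest in cluster 18.

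The unnamed cluster led by Dgkb bears on these calls because its levels of Ccn1 and Ccn2 were high in both libraries. Within it Ccn1 had a ratio of 0.08 (-0.14 to 0.29), Ccn2 0.30 (0.07 to 0.53), Tgfb2 -0.43 (-0.64 to -0.22) and Thbs1 -0.43 (-0.71 to -0.14), all within 1.5-fold. When each library was clustered on its own, all 148 DOX cells of this cluster but 0 of the 243 DOX plus AMH cells fell into the smooth muscle-like class, and the class ratios became -0.71 for Ccn2, -0.55 for Tgfb2, -0.93 for Thbs1 and 0.23 for Ccn1. When cells were instead gated one by one on their markers, 44 DOX plus AMH and 63 DOX cells of the cluster entered the class, and the ratios were 1.05 for Ccn1, 0.50 for Ccn2, 0.18 for Tgfb2 and -0.34 for Thbs1. Of the 3 calls, that for Ccn1 held under the gate and none held with each library clustered alone.

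Mesothelial-like cells, the lining of the outer uterine surface, differed at 8 of the 9 genes, 5 higher and 3 lower, where 9% of the 9861 genes measured were called higher and 16.1% lower. Thbs1 had 59.6 CPM (51.6 to 68.4) in DOX plus AMH and 15.2 CPM (10.6 to 21.2) in DOX, a ratio of 1.97 (1.44 to 2.53). Ccn2 had 15.1 CPM (11.3 to 19.9) in DOX plus AMH and 3.92 CPM (1.79 to 7.44) in DOX, a ratio of 1.95 (0.91 to 3.16), and Ccn1 94.2 CPM (84.2 to 105) in DOX plus AMH and 46.6 CPM (38.2 to 56.3) in DOX, a ratio of 1.02 (0.70 to 1.35). Tgfb1 was higher at 19.3 CPM in DOX plus AMH and 11.3 CPM in DOX, a ratio of 0.77 (0.09 to 1.48). The other ligands went the opposite way: Tgfb2 had 40.0 CPM (33.5 to 47.4) in DOX plus AMH and 103 CPM (90.5 to 117) in DOX, a ratio of -1.37 (-1.68 to -1.06), and Tgfb3 20.2 CPM (15.6 to 25.5) in DOX plus AMH and 49.2 CPM (40.6 to 59.2) in DOX, a ratio of -1.29 (-1.74 to -0.84). Tgfbr2 was lower, with 159.7 CPM (147 to 174) in DOX plus AMH and 261 CPM (240.4 to 283) in DOX and a ratio of -0.71 (-0.88 to -0.54), while Tgfbr1 was within 1.5-fold at 0.36 (-0.10 to 0.83).

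The spread over cells separates these calls. Tgfb2 was counted in 65 of 137 cells of DOX plus AMH and 60 of 87 of DOX, Tgfb3 in 40 and 44 cells and Ccn1 in 76 and 36. Thbs1 was counted in 32 and 17 cells, and its 3 highest cells held 59.2% of its UMIs in DOX plus AMH and 51.4% in DOX. Leaving out the 3 highest cells of each library gave 1.69 for Thbs1, 1.36 for Ccn1, 1.88 for Ccn2, -1.37 for Tgfb2 and -1.33 for Tgfb3. For Ccn2 this left fewer than its 9 UMIs in DOX. Postn was called higher, with 46.8 CPM in DOX plus AMH and 12.2 CPM in DOX and a ratio of 1.94 (1.35 to 2.58), but 3 cells held 96.2% of its 158 UMIs in DOX plus AMH, and without the 3 highest cells of each library the ratio was -1.50. Its call rests on those cells. Genes of the immediate-early response, which cell dissociation also induces, differed in the same cells: 12 of the 17 measured were called higher and 0 lower, and their summed level was 6457 CPM in DOX plus AMH and 3723 CPM in DOX. Their part in the higher Ccn1, Ccn2 and Thbs1 was not tested. Of the 10 TGF-beta targets measured, 3 were called higher and 2 lower. Marker levels of the mesothelial-like class also differed between the libraries. Upk3b had 611 CPM in DOX plus AMH and 957 CPM in DOX, and Msln 226 CPM in DOX plus AMH and 353 CPM in DOX. Upk1b and Muc16 were lower in DOX plus AMH too, while Lrrn4 and Nkain4 were higher. Whether the class held other cells or the same cells at other levels cannot be told apart here.

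In stromal-like cells none of the 9 genes was called in either direction, where 14.3% of 16326 genes were called higher and 4.29% lower. This class was counted most deeply, with 40838626 UMIs in DOX plus AMH and 76227061 in DOX. Tgfbr2 had 151 CPM (147 to 154) in DOX plus AMH and 194 CPM (191 to 198) in DOX, a ratio of -0.37 (-0.41 to -0.33), and had a ratio below 0 in all 8 stromal-like clusters, from -0.94 to -0.32. Tgfb2 had 76.9 CPM in DOX plus AMH and 75.5 CPM in DOX, a ratio of 0.03 (-0.04 to 0.09). Tgfb3 was at 0.29 (0.17 to 0.41), Tgfb1 at -0.30 (-0.59 to -0.02), Tgfbr1 at 0.15 (0.05 to 0.25) and Thbs1 at -0.13 (-0.21 to -0.05). Ccn1 had 9.40 CPM in DOX plus AMH and 6.68 CPM in DOX, a ratio of 0.49 (0.30 to 0.69), and Ccn2 4.58 CPM in DOX plus AMH and 3.94 CPM in DOX, a ratio of 0.22 (-0.05 to 0.49). All genes measured in this class had a median of 0.18, and TMM scaling moved every ratio by -0.19, which turned Tgfb2 and Tgfbr1 below 0 and left Tgfbr2 lower.

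Postn in stromal-like cells was a sum of opposite parts. Its class ratio was 0.20 (0.15 to 0.25), from 129.9 CPM in DOX plus AMH and 113 CPM in DOX. In the cluster led by Cfd, Ly6a and Sntg1, with 143 DOX plus AMH and 313 DOX cells, Postn had 1446 CPM in DOX plus AMH and 584 CPM in DOX, a ratio of 1.31 (1.24 to 1.38). In the other 7 clusters Postn was lower in DOX plus AMH, with ratios from -1.53 to -0.44, 4 of them at least 1.5-fold. The largest of those, led by Frmpd4, Slc26a7 and Angpt1, had 58.6 CPM (53.8 to 63.7) in DOX plus AMH and 96.0 CPM (91.5 to 101) in DOX, and the one led by Col14a1, Mgp and Col1a2 had 103 CPM (95.3 to 112) in DOX plus AMH and 166 CPM (159 to 174) in DOX. Without the Cfd-led cluster the class ratio was -0.72. The Cfd-led cluster gave 3568 of the 5306 stromal UMIs of Postn in DOX plus AMH and 3365 of 8622 in DOX. Its 3 highest cells held 23.0% of its UMIs in DOX plus AMH, and without the 3 highest of each library its ratio was 1.09. In cells thinned to 2000 UMIs, Postn was detected in 8.41% (7.52 to 9.36) of stromal-like cells of DOX plus AMH and 13.7% (12.8 to 14.7) of DOX, so fewer cells held it although the summed level was higher. Unthinned, the shares were 24.7% (23.3 to 26.1) and 42.5% (41.1 to 43.9), and in thinned lymphocyte-like cells they were 2.56% (0.312 to 8.96) and 2.63% (0.320 to 9.18).

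**Figure D4:**
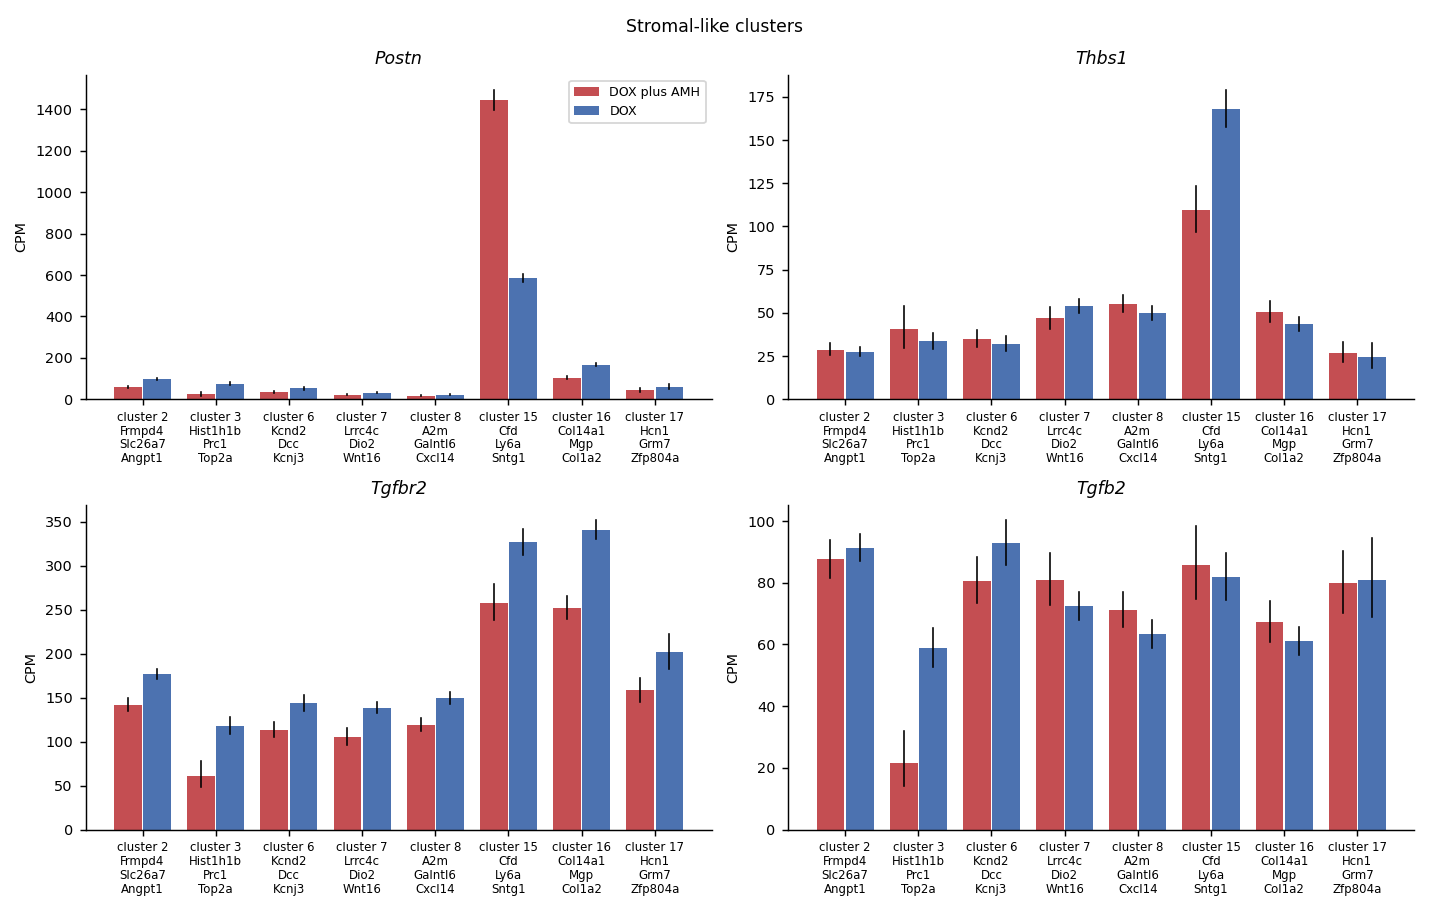
CPM of Postn, Thbs1, Tgfbr2 and Tgfb2 in the 8 stromal-like clusters, each with its leading genes; bars for DOX plus AMH stand left of those for DOX and lines are exact 95% Poisson intervals. Postn is higher in DOX plus AMH in cluster 15 and lower in the other 7, and Tgfbr2 is lower in all 8.

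Within the stroma the other genes also differed by cluster. Thbs1 was highest in the same Cfd-led cluster, with 109 CPM (96.8 to 123) in DOX plus AMH and 168 CPM (158 to 179) in DOX, a ratio of -0.62 (-0.82 to -0.42), while in the other 7 clusters it stayed within 1.5-fold, from -0.20 to 0.28. Postn and Thbs1 thus differed in opposite directions within this cluster. Ccn1 was highest there too, at 51.1 CPM in DOX plus AMH and 40.5 CPM in DOX, and was called higher in the clusters led by Col14a1, with 20.8 CPM in DOX plus AMH and 10.9 CPM in DOX and a ratio of 0.93, and by Frmpd4, with 3.96 CPM in DOX plus AMH and 1.80 CPM in DOX and a ratio of 1.14 (0.42 to 1.86). Tgfb3 was higher in the Kcnd2-led cluster, with 30.0 CPM in DOX plus AMH and 19.4 CPM in DOX and a ratio of 0.63 (0.30 to 0.97), and in the Col14a1-led cluster, with 19.7 CPM in DOX plus AMH and 11.4 CPM in DOX and a ratio of 0.79 (0.42 to 1.17). In the Frmpd4-led cluster Ccn2 was lower, at 1.39 CPM in DOX plus AMH and 3.00 CPM in DOX, a ratio of -1.11 (-2.10 to -0.22). Levels of both Ccn1 and Ccn2 in that cluster lay within the lymphocyte-like intervals of the same library, so they were not apart from that background. Shares of all genes called were computed by class and not by cluster. The Lrrc4c-led cluster had a lower Tgfb1, at 2.40 CPM in DOX plus AMH and 4.19 CPM in DOX, with an interval that crosses 0. The dividing cluster led by Hist1h1b, Prc1 and Top2a, with 46 and 264 cells, had Tgfb2 at 21.6 CPM in DOX plus AMH and 58.7 CPM in DOX, a ratio of -1.44 (-2.09 to -0.85), and Tgfbr2 at 61.4 CPM in DOX plus AMH and 118 CPM in DOX, a ratio of -0.94 (-1.32 to -0.59). Tgfb3 was also lower there, at 8.65 CPM in DOX plus AMH and 15.3 CPM in DOX, with an interval that crosses 0, and Ccn1 was called higher at 1.47 but stood at -1.42 without the 3 highest cells of each library. Across the 8 clusters in both libraries, 16 points that share libraries, log2 levels of Ccn1, Postn, Ccn2 and Thbs1 ran with the summed immediate-early genes, with Pearson r of 0.85, 0.83, 0.80 and 0.68, and that of Tgfb3 ran against them, at -0.72. Over the 10 classes in both libraries, 20 points, the same r was -0.06 for Ccn1, -0.51 for Postn, -0.21 for Ccn2, -0.19 for Thbs1 and -0.31 for Tgfb3. The Cfd-led cluster had the highest immediate-early sum, 3810 CPM in DOX plus AMH and 3909 CPM in DOX. The next, the Col14a1-led cluster, had 1807 CPM in DOX plus AMH and 1520 CPM in DOX. The r over stromal-like clusters was not computed without the Cfd-led cluster. Whether the immediate-early genes account for the pattern was not tested.

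Unnamed clusters with endothelial genes, almost all from DOX, were not part of the endothelial-like classes. Vascular and lymphatic endothelial-like cells shared the direction of 1 called gene, Thbs1. Lymphatic endothelial-like cells had 106 CPM (86.4 to 128) in DOX plus AMH and 210.0 CPM (188 to 234) in DOX, a ratio of -0.99 (-1.32 to -0.67), counted in 13 of 58 cells of DOX plus AMH and 34 of 80 of DOX. Vascular endothelial-like cells had 12.7 CPM (9.36 to 16.8) in DOX plus AMH and 20.7 CPM (14.7 to 28.4) in DOX, a ratio of -0.71 (-1.35 to -0.05), on 48 and 38 UMIs. With cells gated one by one on their markers the vascular ratio was 0.14, so its direction depends on how the class is drawn. Thrombospondin-1 is also known as an inhibitor of blood vessel growth. In vascular endothelial-like cells Tgfb1 was called higher at 0.68 (0.32 to 1.05), and in lymphatic endothelial-like cells Postn, with 84.5 CPM in DOX plus AMH and 46.2 CPM in DOX, at 0.87 (0.40 to 1.34). Among all genes measured, 6.24% were called higher and 4.78% lower in vascular endothelial-like cells, and 7.85% and 7.87% in lymphatic endothelial-like cells, so 1 of 8 genes each way is near the background. Vascular Postn was within 1.5-fold at 0.37 (0.09 to 0.66), but 3 cells held most of its 379 UMIs in DOX plus AMH, and without the 3 highest cells of each library the ratio was -0.87.

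In macrophage or monocyte-like cells Thbs1 was the only gene of the 5 measured that was called, with 157 CPM (142 to 173) in DOX plus AMH and 73.7 CPM (63.6 to 84.9) in DOX and a ratio of 1.09 (0.84 to 1.35), where 13.9% of 8502 genes were called higher and 8.21% lower. It was counted in 54 of 220 cells of DOX plus AMH and 52 of 277 of DOX, and without the 3 highest cells of each library the ratio was 0.86. Tgfb1 had 166 CPM in DOX plus AMH and 169.8 CPM in DOX and a ratio of -0.03 (-0.23 to 0.16), whose interval spans 0. Marker levels of the class differed between the libraries: 6 of its 9 markers were lower in DOX plus AMH, among them Fcgr1 with 125 CPM in DOX plus AMH and 504 CPM in DOX, and 3 were higher. Fn1, the gene of the matrix glycoprotein fibronectin, had 1363 CPM in DOX plus AMH and 183 CPM in DOX, and Itgam, an integrin subunit of myeloid cells, 433 CPM in DOX plus AMH and 199 CPM in DOX. Whether the class held other cells or the same cells at other levels cannot be told apart here, and the part of these genes in the Thbs1 difference was not tested.

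Epithelial-like cells held the CCN genes as their called pair, 2 of 7 measured, where 6.78% of genes were called higher and 5.88% lower. Ccn2 had 27.3 CPM (23.6 to 31.6) in DOX plus AMH and 8.58 CPM (7.06 to 10.3) in DOX, a ratio of 1.67 (1.33 to 2.02), and was counted in 40 of 124 cells of DOX plus AMH and 42 of 270 of DOX. Ccn1 had 76.9 CPM (70.4 to 83.8) in DOX plus AMH and 49.4 CPM (45.7 to 53.4) in DOX, a ratio of 0.64 (0.47 to 0.81), but 3 cells held 42.1% of its UMIs in DOX plus AMH, and without the 3 highest cells of each library the ratio was 0.13. Ccn2 without its 3 highest cells stood at 1.73. In pericyte-like cells, where 11.5% of genes were called higher and 6.64% lower, 5 of the 9 genes were measured. Ccn1 was called higher at 0.60 (0.04 to 1.18) and Tgfbr2 lower at -0.60 (-1.07 to -0.13), from 86.5 CPM in DOX plus AMH and 131 CPM in DOX, and both were within 1.5-fold without the 3 highest cells of each library, at 0.37 and -0.37. Thbs1 was within 1.5-fold at 0.53 and stood at 0.95 without those cells. Ccn2 had too few UMIs for a call there, 27 in DOX plus AMH and 2 in DOX. Immediate-early genes were called higher for 12 of 16 measured in pericyte-like cells and 8 of 17 in epithelial-like cells, with summed levels of 3403 and 1853 CPM in DOX plus AMH and DOX pericyte-like cells and 3072 and 2243 CPM in epithelial-like cells, and their part was not tested. In dendritic-like cells, where 12% of genes were called higher and 9.55% lower, and in lymphocyte-like cells, where the shares were 9.51% and 11.1%, 0 of the 3 genes measured were called. Those 3 were Tgfb1 and both receptors in either class.

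The other genes of the pathway were read from 8 further lists. Their counts stand against the shares of all genes called, which were 14.3% higher and 4.29% lower in stromal-like cells, 8.63% and 4.33% in smooth muscle-like cells and 9% and 16.1% in mesothelial-like cells. Only the 9 genes, not the listed ones, were recomputed under other ways of drawing the classes. How smooth muscle-like ratios of listed genes depend on the Dgkb-led unnamed cluster was therefore not examined. Latency and activation genes, which store and release the ligands, were called higher for 3 of 12 in stromal-like cells and lower for 0, and those 3 were at low levels: Ltbp2 with 2.15 CPM in DOX plus AMH and 0.905 CPM in DOX, Itgb6 with 1.10 CPM in DOX plus AMH and 0.577 CPM in DOX and Nrros with 0.955 CPM in DOX plus AMH and 0.551 CPM in DOX. The highest of the list, Ltbp4 with 331 CPM in DOX plus AMH and 342 CPM in DOX and Fbn1 with 146 CPM in DOX plus AMH and 194 CPM in DOX, were within 1.5-fold. In smooth muscle-like cells 0 of 10 were called, and Ltbp1, which tethers latent ligand to the matrix, had 555 CPM in DOX plus AMH and 521 CPM in DOX. In mesothelial-like cells 1 of 9 was called higher and 4 lower, with Ltbp1 at 20.7 CPM in DOX plus AMH and 123 CPM in DOX, a ratio of -2.57, and Ltbp4 at 161 CPM in DOX plus AMH and 411 CPM in DOX, a ratio of -1.35. Both binding proteins were at least 1.5-fold lower there, as were Tgfb2, Tgfb3 and Tgfbr2.

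Of the co-receptors and decoys, Bambi, a pseudoreceptor that blocks signalling, was the 1 of 5 called higher in both main classes, with 18.6 CPM in DOX plus AMH and 11.5 CPM in DOX in stromal-like cells, a ratio of 0.69, and 33.5 CPM in DOX plus AMH and 18.1 CPM in DOX in smooth muscle-like cells, a ratio of 0.89. Cd109 was the 1 called lower, in stromal-like cells, at 5.66 CPM in DOX plus AMH and 8.70 CPM in DOX. The SMADs and their brakes had 0 of 11 called in stromal-like cells. In smooth muscle-like cells the inhibitory SMAD Smad6 had 16.4 CPM in DOX plus AMH and 7.99 CPM in DOX, a ratio of 1.04, Skil 13.5 CPM in DOX plus AMH and 7.58 CPM in DOX, a ratio of 0.84, and Pmepa1, a feedback target of TGF-beta, 20.6 CPM in DOX plus AMH and 32.6 CPM in DOX, a ratio of -0.66. Of the TGF-beta targets only Tgfbi was called in stromal-like cells, 1 of 14, at 72.5 CPM in DOX plus AMH and 44.7 CPM in DOX, a ratio of 0.70. In smooth muscle-like cells 2 of 12 were called, both higher, among them Tgfbi at 19.4 CPM in DOX plus AMH and 7.99 CPM in DOX, a ratio of 1.28. The targets at the highest level in both classes were within 1.5-fold and below 0, Fn1 at -0.36 and -0.38 and Col5a1 at -0.58 and -0.39, giving the stromal-like class before the smooth muscle-like one. The list's median was -0.06 in stromal-like cells and 0.00 in smooth muscle-like cells, against 0.18 and 0.14 over all genes.

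Other matricellular genes were called lower for 3 of the 10 measured in stromal-like cells, where 4.29% of all genes were, and higher for 0, where 14.3% were: Thbs4 at 0.171 CPM in DOX plus AMH and 0.590 CPM in DOX, Ccn3 at 8.91 CPM in DOX plus AMH and 15.8 CPM in DOX, a ratio of -0.83, and Thbs3 at 30.8 CPM in DOX plus AMH and 48.3 CPM in DOX, a ratio of -0.65. In smooth muscle-like cells 0 of 6 were called. Matricellular receptors were called higher for 2 of 8 in stromal-like cells, Cd36 and Itgam, both at 2.55 CPM or less, and for 2 of 6 in smooth muscle-like cells, Itga5, a fibronectin receptor subunit, with 52.6 CPM in DOX plus AMH and 28.5 CPM in DOX, and Sdc4 with 61.6 CPM in DOX plus AMH and 40.1 CPM in DOX. Targets of YAP and serum response factor, the other known inducers of Ccn1 and Ccn2, had 1 of 11 called in smooth muscle-like cells, Amotl2 at 14.1 CPM in DOX plus AMH and 7.48 CPM in DOX, a ratio of 0.91. In stromal-like cells 1 of 12 was higher, Ajuba at 3.23 CPM in DOX plus AMH and 1.92 CPM in DOX, and 1 lower, Tpm1 at 118 CPM in DOX plus AMH and 191 CPM in DOX. Of the activin list, Inhbb, a subunit of activin B and inhibin B, was lower in both classes, with 2.62 CPM (2.15 to 3.17) in DOX plus AMH and 16.2 CPM (15.3 to 17.1) in DOX in stromal-like cells, a ratio of -2.63, and 9.21 CPM (7.51 to 11.2) in DOX plus AMH and 33.3 CPM (29.8 to 37.1) in DOX in smooth muscle-like cells, a ratio of -1.85. Fst, which binds activins, was lower in stromal-like cells, at 20.4 CPM in DOX plus AMH and 34.2 CPM in DOX, and the receptor Acvr2b higher, at 6.51 CPM in DOX plus AMH and 3.58 CPM in DOX, so that 1 of 7 was higher and 2 lower there. Immediate-early genes were called higher for 3 of 16 in smooth muscle-like cells, Atf3, Dusp1 and Nr4a1, with Atf3 at 64.1 CPM in DOX plus AMH and 30.8 CPM in DOX, and lower for 0. In stromal-like cells 3 of 18 were called higher and 1 lower, near the shares of all genes. Their summed level was 1452 CPM in DOX plus AMH and 1196 CPM in DOX in smooth muscle-like cells, and in the Actg2-led cluster, where Ccn1 and Ccn2 differed most, it was 1848 and 1700 CPM.

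Shares of cells with a UMI were read after thinning to 2000 UMIs. They are given here for Ccn1 and Ccn2 in smooth muscle-like cells and for Tgfbr2 and Tgfb2 in stromal-like cells. Ccn1 was detected in 6.56% (5.16 to 8.21) of the smooth muscle-like class in DOX plus AMH and 2.31% (1.41 to 3.54) in DOX, and in 1.28% (0.0325 to 6.94) and 1.32% (0.0333 to 7.11) of lymphocyte-like cells, whose median depths were 5594 and 5614 UMIs against 9022 and 10285 in smooth muscle-like cells. Thinning left out 36 and 55 smooth muscle-like cells. Ccn2 was detected in 2.03% (1.28 to 3.06) and 1.61% (0.886 to 2.69), a difference not detectable at this depth. Tgfbr2 was detected in 24.2% (22.8 to 25.7) of stromal-like cells of DOX plus AMH and 29.3% (28.1 to 30.6) of DOX. Tgfb2 was detected in 13.5% (12.4 to 14.6) and 13.0% (12.1 to 14.0) of stromal-like cells after thinning, but in 44.7% (43.0 to 46.3) and 53.3% (51.9 to 54.7) before it, where the DOX cells were the more deeply read. Among thinned stromal-like cells of DOX plus AMH, Postn was detected in 27.5% of the 51 cells with Ccn1 and 8.13% of the rest, and in DOX in 30.0% of the 50 with Ccn1 and 13.6% of the rest. Cells with both CCN genes were too few to read: 2 of 71 smooth muscle-like cells with Ccn1 in DOX plus AMH also had Ccn2, and 0 of 20 in DOX.

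Genes whose level ran closely with each member over the 10 classes in both libraries, 20 points on the log2(CPM + 1) scale that share libraries and depth, were as follows. Tgfb1 ran with Il2rg and Ptpre (Pearson r 0.97 for both), and Tgfb2 with Rhoj (0.97) and the microfibril gene Fbn1 (0.96). Tgfb3 ran with Loxl2 (0.94) and Ak5 (0.92), Tgfbr2 with Rbms1 (0.90) and Sh3bp5 (0.88), and Tgfbr1 with no gene above 0.76. Ccn1 ran with Ajuba (0.91) and Pawr (0.91), Ccn2 with Trmt9b (0.89) and Cnn3 (0.89), Thbs1 with Gdf15 (0.82) and Sash1 (0.82), and Postn with Htr2a (0.93), Bok (0.92) and Cald1 (0.92). These are descriptions of class patterns with no test.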

How the data were processed

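Single-cell libraries of mouse uterus, 1 per group, were compared. Per the labels the authors used 10x Genomics 3′ chemistry, and per the submitters' processing notes Cell Ranger 7.0.0 and mm10. The authors deposited unnormalized UMI counts for each gene in each barcode, and the lowest barcode total was 500 UMIs in both. Whether introns were counted, and the annotation release, were not given in the sources used here.

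Barcodes with at least 1000 UMIs, 500 genes and at most 15% mitochondrial UMIs were kept, 7065 in DOX plus AMH and 7783 in DOX. Scrublet, run per library in scanpy 1.11.5 with an expected doublet rate of 7%, called 327 and 396 doublets (4.63% and 5.09%), which were removed. Cells were clustered together by the Leiden method at resolution 1 on 2000 variable genes, 30 principal components and 15 neighbours, leaving the 9 members and 104 listed genes out of the variable genes. Clusters were named from 125 markers of 21 classes. The doublet rate, the naming score and its pseudocount of 20 CPM were set after seeing the data. The members and gene lists were chosen with earlier results of these data known.

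UMIs were summed per class and library and given as CPM over all genes. The text names all members in every class with enough UMIs, up to 3 higher and 3 lower genes per list and the 2 of highest level in the stromal-like and the smooth muscle-like class, up to 2 per list elsewhere and up to 3 genes of like pattern per member. Some genes that this rule would name are not reported here. The ratios and intervals were tested on simulated Poisson counts, which is the model the intervals assume. That simulation cannot show how the intervals hold where UMIs gather in few cells. Alternatives covered the filters, doublets, clustering, a marker gate on each cell, TMM (edgeR 4.0.16), other scalings, thresholds and thinning. Promoters came from RefSeq and gene positions from an mm10 annotation.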

Additional observations from a re-analysis of the deposited data

Results flagged for a closer look

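Some genes were called in opposite directions in different cells, and whether these ratios differ from each other was not tested, since each group is 1 library. Thbs1 was higher in mesothelial-like cells (log2 ratio 1.97) and macrophage or monocyte-like cells (1.09) and lower in vascular (-0.71) and lymphatic endothelial-like cells (-0.99), the vascular one turning to 0.14 with a marker gate on each cell. Tgfb2 was higher in smooth muscle-like cells (0.60) and lower in mesothelial-like cells (-1.37). Within the stroma, Postn was higher in the Cfd-led cluster 15 (1.31) and at least 1.5-fold lower in cluster 2 (-0.71), the dividing cluster 3 (-1.53), cluster 6 (-0.66) and cluster 16 (-0.69).

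Signal of the 9 genes also lay in cells outside the comparisons. The squamous epithelial-like cells, of which 482 were in DOX plus AMH and 7 in DOX, held in DOX plus AMH 63.4 CPM of Tgfb2, 56.0 of Tgfbr1, 49.8 of Ccn1 and 46.3 of Thbs1. They held 38.8 CPM of Tgfbr2, 19.9 of Tgfb3, 9.60 of Tgfb1, 6.75 of Postn and 1.35 of Ccn2. Of their 2 clusters, the one led by basal genes such as Krt15 and Trp63 had 97.2 CPM of Thbs1 and the one led by Krt13 and Spink5 5.54 CPM. Barcodes left out by the filters held 3703 UMIs of the 9 genes in DOX plus AMH and 5390 in DOX.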

How the results depend on the processing

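No paired analysis was possible because each group is 1 library. Of the 20 calls, none changed sign with the cell filters, keeping doublets, leaving out shared barcodes, another resolution or another scaling, but several lost the 1.5-fold size. Over 13 alternatives, smooth muscle Tgfb2 was past it in 5, epithelial Ccn1 in 7 and pericyte Ccn1 and Tgfbr2 in 8 each, and the other 16 calls in 11 or more. The pericyte-like class grew from 126 DOX plus AMH and 81 DOX cells to 413 and 341 without the cell filter. It held 349 and 203 cells with the stricter filter and 404 and 327 with doublets kept. Its ratios in those settings therefore cover other cells too, and which cells joined was not followed. Of the 66 ratios, averaging the cells' own CPM moved 18 beyond counting error and dropping the cell filter 11. Clustering each library on its own left 63 ratios, moved 18 of them and turned the sign of 2 calls. The marker gate on each cell moved 12 and turned the sign of 1 call. The calls turned by clustering alone were Tgfb2 (-0.55) and Ccn2 (-0.71) in smooth muscle-like cells. That class took in the Dgkb-led unnamed cluster from DOX alone. A marker gate on each cell gave 0.14 for Thbs1 in vascular endothelial-like cells, and the cause was not tested. Leaving out the 3 highest cells of each library, chosen after seeing the data as was leaving out the Cfd-led cluster, gave -1.50 for mesothelial Postn. TMM moved ratios by -0.19 in stromal-like, -0.13 in smooth muscle-like, 0.14 in mesothelial-like and -0.11 in macrophage-like cells, and by less than 0.1 elsewhere. A scaling turned the sign of 5 ratios near 0, those of Tgfb2 and Tgfbr1 in stromal-like, Tgfb3 in smooth muscle-like, Tgfbr2 in vascular endothelial-like and Tgfbr1 in macrophage-like cells. Shares of all genes called were computed only in the main setting, at 1.5-fold with at least 50 UMIs. The counts of calls under other settings that follow therefore have no background beside them. The 14 higher calls became 23 at 1.3-fold, 8 at 2-fold and 9 with at least 200 UMIs. The 6 lower calls became 10 with doublets kept, 2 at 2-fold and 3 with at least 200 UMIs. Stromal-like cells had 1 higher call at 1.3-fold, 1 higher and 1 lower without the Cfd-led cluster and 1 lower with each library clustered alone, against 0. Smooth muscle-like cells had 1 higher and 2 lower calls with each library clustered alone, 1 higher with the marker gate and 5 higher at 1.3-fold, against 3 higher and 0 lower. Mesothelial-like cells had 2 higher with at least 200 UMIs, against 5. The mesothelial calls for Tgfb1, Tgfb2, Tgfb3, Ccn1, Ccn2 and Thbs1 stayed past 1.5-fold in all 13 alternatives that recomputed the ratios. Depth limits Ccn2, at under 31 CPM in each of the 10 compared classes.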
